A study of Mus musculus with 20 samples.

Results

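Molecular chaperones of the heat shock families were followed through primary mouse ovarian surface epithelial (OSE) cells grown for 15 days with estradiol (E2) or with its vehicle. The 10 listed genes were chosen as chaperones with earlier results of these data known, though not by a threshold on their values. Of them, 9 had a row among the 14299 genes of the deposited single-cell count table. These were the small heat shock proteins Cryab, Hspb1 and Hspb8, the HSP70 proteins Hspa8 and Hspa5, their partners Dnajb1 and Hsph1, and the HSP90 proteins Hsp90aa1 and Hsp90ab1. The inducible HSP70 gene Hspa1a is not analysed here.

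Chaperones bind unfolded proteins and keep them from clumping until they can be refolded or degraded. Small heat shock proteins hold client proteins without using ATP, HSP70 proteins fold them in ATP-driven cycles that J-domain proteins start and nucleotide exchange factors complete, and HSP90 proteins finish the folding of kinases and of steroid hormone receptors, among them the estrogen receptor. Heat shock factors, which bind heat shock elements in DNA, raise many of these genes under stress, and the unfolded protein response raises those of the endoplasmic reticulum (ER).

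All cells came from cultures of primary mouse OSE, which forms the outer surface of the ovary, kept for 48 hours in hormone-free medium before treatment. Control cells received ethanol at 0.0002% and E2 cells received 100 nM E2 for 15 days. Control and E2 cells filled separate columns of 1 microfluidic chip, with 1 library for each chip column. How many cultures each condition came from is not given in the sources used here. The libraries of a condition are taken here to share 1 suspension and a chip side, so E2 treatment, culture and chip side cannot be told apart. Strain and age of the mice are not given in the sources used here for these cultures. The authors had split the cells into 2 clusters, named here as in their text: responsive cells, whose expression differed with E2, and cluster 1 cells, in which little of it did.

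The table held 589 cells in 19 libraries (10 control, 9 E2, since chip column 13 had no cell). There were 203 control and 218 E2 responsive cells, and 126 control and 42 E2 cluster 1 cells. Levels are in CPM, the summed reads of a gene in a library and cluster scaled to a common library total by TMM (the trimmed mean of M-values), for sums of at least 3 cells: 10 control and 9 E2 sums in responsive cells, 10 and 7 in cluster 1. Median reads per cell fell across these groups from 143453 (control responsive) through 117918 (E2 responsive) and 112314 (control cluster 1) to 87702 (E2 cluster 1), and the median mitochondrial share was 2.08%, 2.43%, 2.53% and 3.55% in the same order. The summed level of 9 OSE markers (keratins and mesothelial genes, 9 of 9 in the table) had medians of 5994, 5472, 6064 and 4923 CPM. Single OSE markers went opposite ways between the clusters. Their fitted cluster 1 minus responsive difference was positive for 4 and negative for 5, from −4.41 (Krt19) to 3.28 on the log2 scale. The summed level of 5 of 6 stromal fibroblast markers had medians of 2045, 1965, 3694 and 3636 CPM, and that of 2 of 5 leukocyte markers 64.0, 66.7, 25.9 and 3.29 CPM. Of theca markers 3 of 5 were in the table, with medians of 42.0, 42.6, 182 and 222 CPM, and of granulosa markers 1 of 5, with 17.2, 19.2, 54.6 and 41.2 CPM. Endothelial markers (2 of 4 in the table) had medians of 522, 496, 440 and 436 CPM, and muscle and pericyte markers (3 of 5) 2.07, 0.898, 0 and 0 CPM. The summed fibroblast level was thus higher in cluster 1, although the fitted difference was negative for 3 of the 5 genes, and the theca and granulosa levels were higher there too. The part of these cells in the results was not tested. The cluster 1 sum of E2 replicate 15 held 3 cells and had the highest level of its group for 6 of the 9 chaperones. The E2 change of each chaperone within cluster 1 is therefore given with and without it. The interactions and the differences between clusters include it.

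Cryab and Hspb1 carried the differences described below. The sequence before the start of Hspb1, of its relative Hspb8 and of Hspa5 is printed from RefSeq promoters (GRCm38.p6; 5 of the 9 genes had an entry) because Hspb1 and Hspa5 hold elements that heat shock factors and the unfolded protein response are known to read, and Hspb8, the other small heat shock gene lower in cluster 1, is set beside Hspb1. Each line holds the 250 bases before the RefSeq transcription start on the gene's own strand. Capitals mark a pair of heat shock units (GAANNTTC) or an ER stress element.
Hspb1: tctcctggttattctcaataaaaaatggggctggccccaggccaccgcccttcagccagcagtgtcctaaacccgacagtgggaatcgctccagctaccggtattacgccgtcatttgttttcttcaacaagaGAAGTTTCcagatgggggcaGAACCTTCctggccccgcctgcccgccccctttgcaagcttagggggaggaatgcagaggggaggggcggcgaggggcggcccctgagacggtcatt
Hspb8: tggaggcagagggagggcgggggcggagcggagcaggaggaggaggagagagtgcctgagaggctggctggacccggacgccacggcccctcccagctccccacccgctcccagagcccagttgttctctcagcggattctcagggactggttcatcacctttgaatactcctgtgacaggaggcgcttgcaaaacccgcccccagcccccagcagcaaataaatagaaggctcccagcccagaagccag
Hspa5: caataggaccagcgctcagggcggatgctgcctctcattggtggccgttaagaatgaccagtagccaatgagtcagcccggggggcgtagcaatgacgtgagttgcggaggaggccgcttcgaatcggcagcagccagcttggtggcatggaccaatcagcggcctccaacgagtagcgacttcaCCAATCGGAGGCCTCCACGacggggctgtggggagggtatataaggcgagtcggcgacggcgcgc

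The Hspb1 sequence lies at chr5:135887669-135887918 (plus strand) and held 2 pairs of heat shock units, GAAGTTTC at 117 and GAACCTTC at 97 bases before the start. The Hspb8 sequence lies at chr5:116422865-116423114 (minus strand) and held none, its 1 match (GAAGTTTC) falling just after the start. Over 32851 promoters of 300 bases, 7.86% held such a pair, which reads the same on both strands. The Hspa5 sequence lies at chr2:34771840-34772089 (plus strand) and held the ER stress element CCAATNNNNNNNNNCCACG 65 bases before the start, a pattern found on either strand (reverse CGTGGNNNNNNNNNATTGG) in 0.119% of promoters. Hsph1 held the heat shock element of 3 units (GAANNTTC, NN and then GAA, or on the other strand TTC, NN and then GAANNTTC, in 0.603% of promoters) as TTCTGGAAAGTTC, which lies 36 bases after the start of 1 of its 2 RefSeq entries and 15 after that of the other, and so outside the bases printed for the other genes. An estrogen response element (GGTCANNNTGACC, the same on both strands, 0.0700% of promoters) was in none of the windows of the 5 genes with an entry. Cryab, the chaperone called with E2 below, had no entry, so its promoter was not searched. Nor were those of Hspa8, Hsp90aa1 and Hsp90ab1. These are matches of letters in a window, and they say nothing of binding.

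Cryab was the one chaperone gene called with E2 in responsive cells. It encodes alpha B-crystallin, a small heat shock protein of the cytoplasm (chr9:50751325-50756636, GRCm38, plus strand). In control responsive cells its level was 205 CPM in the lowest library, 337 in the median and 436 in the highest (315 ± 77.7, mean ± SD, n = 10), and in E2 responsive cells it was 86.8, 147 and 262 (159 ± 54.7, n = 9). All 9 E2 libraries lay below the control median and 7 of them below the lowest control library, so the groups overlapped in their tails. The level fell by 1.00 on the log2 scale (SE 0.19, 95% interval −1.39 to −0.61), a 2.00-fold lower level (edgeR quasi-likelihood test, Benjamini-Hochberg adjusted p = 0.00299). Across all 10265 genes tested, 0.526% were called lower (adjusted p below 0.05 and a log2 change beyond 0.5), against 1 of the 9 chaperones. The authors had already named Cryab, from these same cells, among hypoxia genes that control cells raise. The share of 1 in 9 is thus not independent of earlier results. The call held in 7 of 7 other settings and without each of the 19 libraries in turn, with log2 fold changes from −1.12 to −0.92 on leaving out 1 library.

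The fall of Cryab was also seen as fewer cells with a read. Reads were found in 89.4% ± 7.56 of control and 68.0% ± 11.0 of E2 responsive cells (mean ± SD over libraries, n = 10 and 9), and in 79.8% ± 5.58 and 53.9% ± 14.5 after every cell was thinned to 20000 reads. The median cell had 235 CPM in control and 61.5 CPM in E2 responsive cells. The tenth of cells with most Cryab reads held 33.8% of them in control and 45.3% in E2 responsive cells. This share also rose for chaperones with no detectable E2 change, such as Hspa5 (26.9% to 34.3%) and Hsp90ab1 (20.9% to 24.6%). It stayed near level for Hspb8 (42.5% and 42.6%) and fell for Dnajb1 (75.1% to 71.9%). The rise was thus not particular to Cryab. Less Cryab transcript per cell would also leave fewer cells with a read. The Cryab values do not tell this apart from fewer cells with the transcript.

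In cluster 1, the median of Cryab was higher in the E2 libraries than in the control libraries. Control cluster 1 libraries had 114, 183 and 343 CPM (lowest, median, highest; 201 ± 71.1, n = 10), and E2 cluster 1 libraries 112, 230 and 479 CPM (267 ± 128, n = 7). These groups overlapped, with 2 of the 7 E2 libraries above the highest control library, and the log2 fold change of 0.44 (SE 0.31, 95% interval −0.19 to 1.07, adjusted p = 0.822) was not called. Without the 3-cell sum of E2 replicate 15 it was 0.24.

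The E2 effect on Cryab in cluster 1 minus that in responsive cells was 1.39 on the log2 scale (SE 0.35, 95% interval 0.68 to 2.09), with an adjusted p of 0.0789 by edgeR that missed the threshold. None of the 9 chaperones was called in this interaction, in which 0.184% of 11398 genes were. The call depended on the setting: adjusted p was 0.00599 with DESeq2 and 0.0431 with another scaling (RLE size factors), both past the threshold, and 0.431 with library as a block. Leaving out 1 library gave adjusted p from 0.0285 to 0.15, past the threshold without E2 replicate 16 or 18. The RLE scaling moved the median interaction of all genes from −0.19 to −0.02, and relative to that median Cryab stood at 1.57 and 1.64 under the 2 scalings. That Cryab responded differently in the 2 clusters was therefore not shown, although the interval of the difference lay above 0.

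Within most libraries, the 2 clusters were ranked by Cryab in opposite order in the 2 conditions. Of the control libraries, 10 of 10 had less Cryab in cluster 1 than in responsive cells, by a difference of −0.68 ± 0.47 on the log2(CPM + 1) scale (mean ± SD). Of the E2 libraries, 5 of 7 had more Cryab in cluster 1, the mean difference being 0.65 ± 1.02. The 7 include replicate 15, with 479 CPM in its 3-cell cluster 1 sum and 192 CPM in its responsive cells. These values are a description, since the clusters had been drawn from the genes of the same cells. The fitted cluster 1 minus responsive difference over both conditions, −0.04 (SE 0.20), is an average of these opposite values.

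**Figure D1:**
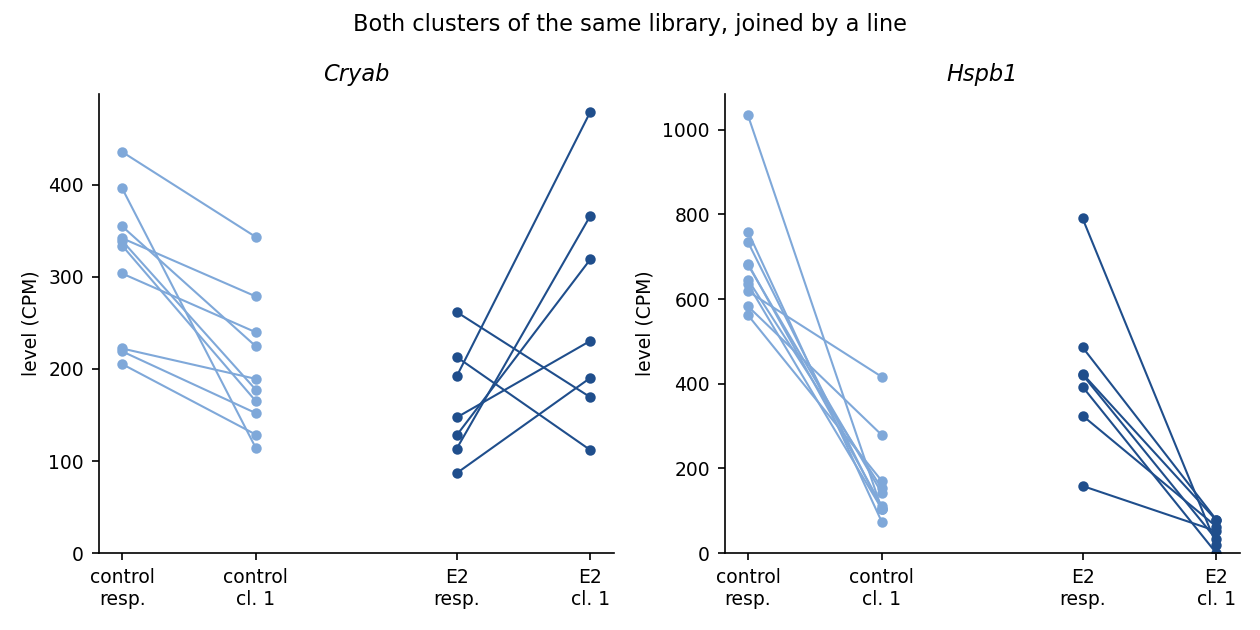
Level in CPM (vertical axis, from 0) of Cryab and Hspb1 in the responsive (resp.) and cluster 1 (cl. 1) cells of 10 control (pale) and 7 E2 (dark) libraries, each line joining both clusters of 1 library. Cryab lines fall in 10 of 10 control libraries and rise in 5 of 7 E2 libraries, while Hspb1 lines fall in 17 of 17.

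Hspb1 was lower in cluster 1 than in responsive cells. As for Cryab, the cluster differences of Hspb1 and of the genes below are a description, since the clusters had been drawn from the same cells' genes. It encodes HSP27, a small heat shock protein that also binds actin filaments (chr5:135887919-135889563, plus strand; promoter printed above). Control responsive libraries had 562, 663 and 1034 CPM (lowest, median, highest; 694 ± 134) and control cluster 1 libraries 74.0, 127 and 416 CPM (166 ± 105). E2 responsive libraries had 159, 424 and 791 CPM (468 ± 183) and E2 cluster 1 libraries 0, 52.1 and 79.0 CPM (46.3 ± 29.9), with 1 of these 7 at 0. Hspb1 was lower in cluster 1 in 17 of 17 libraries, something seen in 2.18% of 11398 genes and in 2 of the 9 chaperones. The fitted difference was −2.58 on the log2 scale (SE 0.28), 5.98-fold lower, and lay between −2.74 and −2.48 over the settings tried. Cluster 1 held 23.9% of the responsive level in control and 10.8% in E2 libraries. After thinning, 95.2% ± 5.40 of control responsive cells and 55.2% ± 9.08 of control cluster 1 cells had an Hspb1 read.

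With E2, Hspb1 was lower in most libraries of both clusters without passing the test. In responsive cells 8 of 9 E2 libraries lay below the control median and 6 below the lowest control library, and the log2 fold change was −0.57 (SE 0.20, 95% interval −0.97 to −0.17, adjusted p = 0.216). In cluster 1 all 7 E2 libraries lay below the control median, 5 of them below the lowest control library. The log2 fold change there was −1.80 (SE 0.55, 95% interval −2.93 to −0.66, adjusted p = 0.326), or −1.82 without the sum of replicate 15. The intervals with all sums lie below 0 in both clusters, but neither change holds up against the number of genes tested. Over the other settings the adjusted p ran from 0.0915 to 0.218 in responsive cells and from 0.0724 to 0.495 in cluster 1. The thinned share of cells with a read was 84.9% ± 6.22 in E2 responsive and 35.0% ± 23.0 in E2 cluster 1 cells. The difference between the clusters' responses was −1.26 (SE 0.49, adjusted p = 0.295).

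Hspb8, like Hspb1, was lower in cluster 1. It encodes HSP22, which works with the cochaperone BAG3 in clearing misfolded proteins (chr5:116408491-116422864, minus strand). Control and E2 responsive libraries had medians of 177 (94.6 to 313) and 155 (127 to 246) CPM, and control and E2 cluster 1 libraries 104 (20.1 to 150) and 67.2 (0 to 208) CPM. It was lower in cluster 1 in 15 of 17 libraries, with a fitted difference of −0.88 (SE 0.28; −1.24 to −0.75 over the settings). Its E2 change was −0.09 in responsive cells (95% interval −0.50 to 0.31, adjusted p = 0.946) and −0.10 in cluster 1 (95% interval −1.30 to 1.11, adjusted p = 0.989; −0.42 without the sum of replicate 15). The cluster 1 interval leaves room for a change of more than 2.00-fold in either direction. The 3 other small heat shock protein genes in the table, Hspb2, Hspb6 and Hspb7, had fitted cluster differences of −1.79 (SE 0.74), −1.97 (SE 1.10) and −2.50 (SE 0.94). None of the 3 passed the low-count filter in the cluster 1 fit, and 2 passed it in the responsive fit. They were thus kept mainly by their responsive reads, and their sign is no result about the family.

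**Figure D2:**
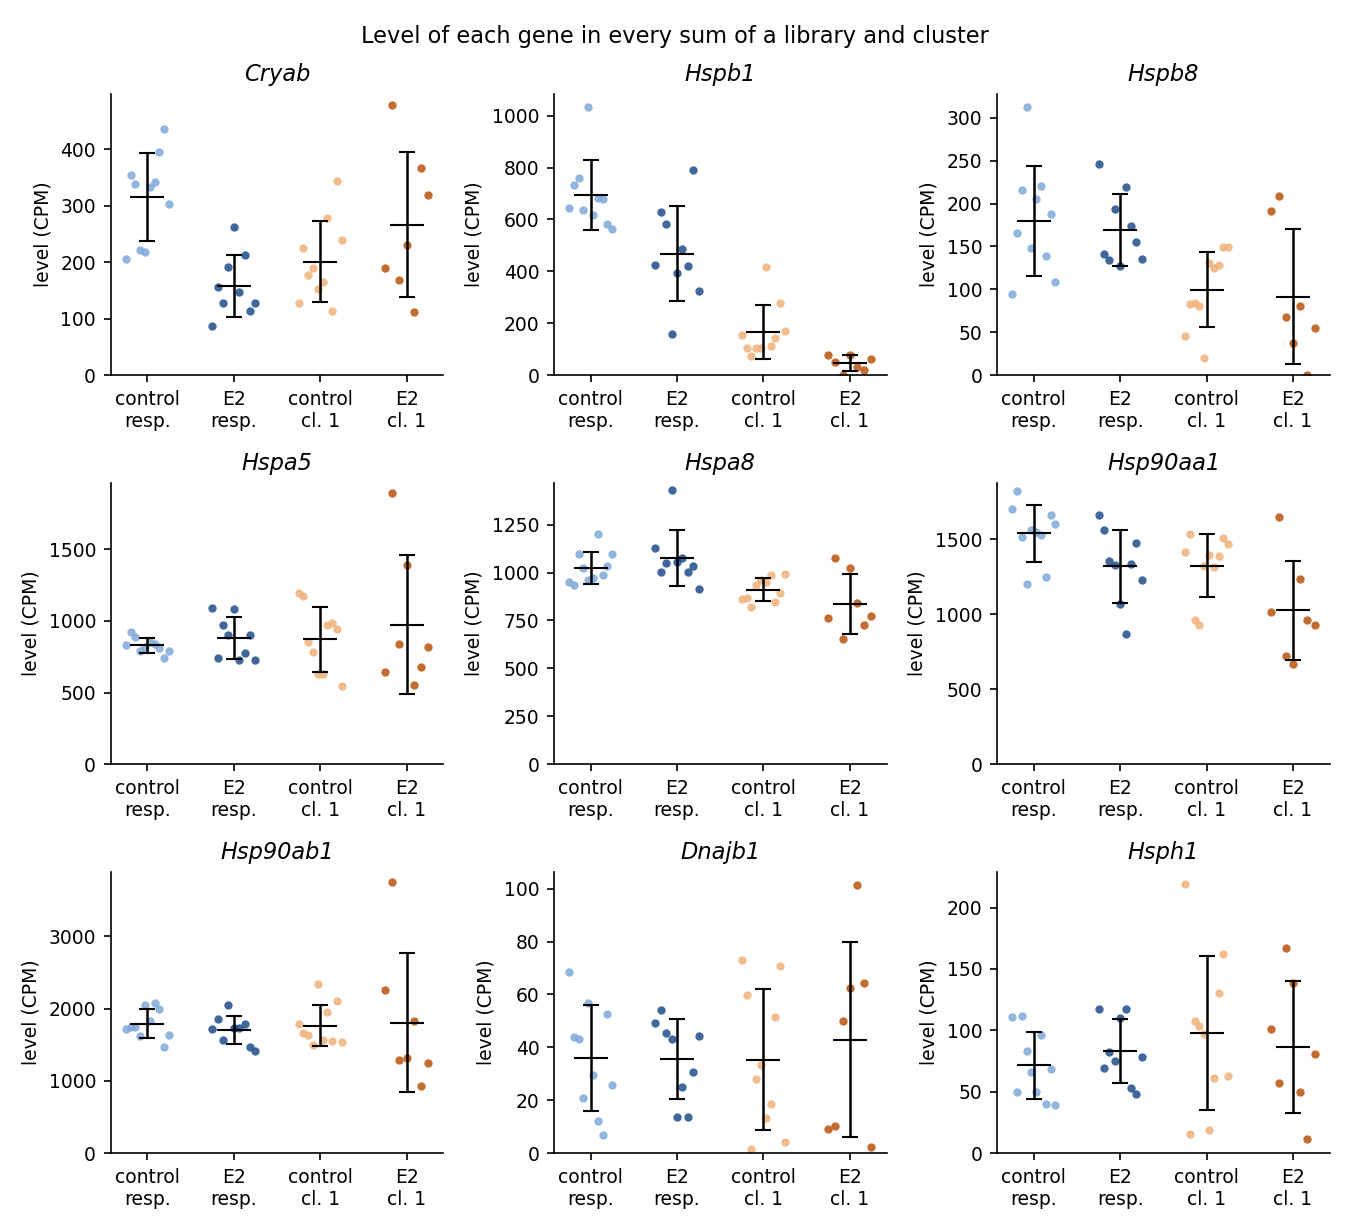
Level in CPM (vertical axes, each from 0) of the 9 chaperone genes in every sum of a library and cluster, in control and E2 responsive (resp., blue) and cluster 1 (cl. 1, orange) cells. Points are libraries (n = 10, 9, 10 and 7 from left to right), the short horizontal line is the mean and the bar is ± 1 SD; Cryab is lower in E2 than in control responsive cells and Hspb1 is lower in both cluster 1 groups, while Hspa8 and Hsp90ab1 overlap in all 4 groups.

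The abundant chaperones of the cytoplasm showed no detectable change with E2. Hspa8 encodes HSC70, which is made in unstressed cells (chr9:40800984-40810087, plus strand). Its libraries ranged from 934 to 1199 CPM (median 1006) in control and from 914 to 1431 (median 1048) in E2 responsive cells, and every one of the 589 cells had a read. The E2 change was 0.06 (SE 0.10, 95% interval −0.14 to 0.26, adjusted p = 0.915). This interval leaves out changes beyond 0.26 on the log2 scale only for the spread between chip columns, not between cultures. Between clusters Hspa8 was slightly lower in cluster 1 in 17 of 17 libraries, by 0.26 (SE 0.08), with control cluster 1 at 911 ± 62.0 and E2 cluster 1 at 836 ± 156 CPM. Its E2 change in cluster 1 was −0.08 (95% interval −0.40 to 0.24, adjusted p = 0.962), and −0.15 without the sum of replicate 15.

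Hsp90aa1 and Hsp90ab1 encode the stress-inducible and the constitutive HSP90 of the cytoplasm (chr12:110690605-110702728 and chr17:45567775-45573271, both minus strand). Hsp90aa1 had medians of 1554 (1203 to 1820) in control and 1333 (865 to 1659) CPM in E2 responsive cells, and 1390 (927 to 1532) and 961 (670 to 1646) CPM in cluster 1. Its E2 change was −0.23 in responsive cells (SE 0.12, 95% interval −0.47 to 0.01, adjusted p = 0.538) and −0.33 in cluster 1 (SE 0.18, adjusted p = 0.748), and −0.48 in cluster 1 without the sum of replicate 15 (adjusted p = 0.355). Cluster 1 had less of it than the responsive cells in 15 of 17 libraries. Hsp90ab1 had medians of 1746 and 1731 CPM in control and E2 responsive cells, with an E2 change of −0.08 (95% interval −0.28 to 0.12, adjusted p = 0.898). In E2 cluster 1 its range of 930 to 3751 CPM was set by the 3-cell sum of replicate 15, the next library being at 2256 CPM. Its change in cluster 1 was 0.07 (adjusted p = 0.982), and −0.21 without that sum. Neither HSP90 gene was called in either cluster.

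Hspa5, the HSP70 of the ER known as BiP and raised by the unfolded protein response, likewise showed no detectable change (chr2:34771970-34777547, plus strand). Its ER stress element is printed above. This GENCODE span starts before the RefSeq start used there, so the printed element lies inside the span. Control responsive libraries lay between 738 and 925 CPM (829 ± 52.1) and E2 responsive libraries between 726 and 1090 CPM (880 ± 146). The E2 change was 0.08 (SE 0.10, 95% interval −0.14 to 0.29, adjusted p = 0.906). In cluster 1 the libraries ranged from 546 to 1197 CPM in control and from 556 to 1896 CPM with E2, the highest again the sum of replicate 15, and the change of 0.20 (adjusted p = 0.945) became −0.04 without it.

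Dnajb1 and Hsph1 were read in a minority of cells, a share that depends on depth and was lower still after thinning. Dnajb1 encodes HSP40, a J-domain protein that starts the HSP70 cycle (chr8:83608193-83612653, plus strand), and Hsph1 encodes HSP110, a nucleotide exchange factor of HSP70 (chr5:149614287-149636376, minus strand). Dnajb1 was at 6.68 to 68.4 CPM (median 36.4) in control and 13.6 to 54.2 CPM (median 43.2) in E2 responsive cells. A read of Dnajb1 was found in 26.7% to 35.3% of cells in the 4 groups, and the tenth of cells with most of them held 59.1% to 86.7% of its reads, against 19% to 24.1% for Hspa8. Hsph1 was at 39.4 to 111 CPM (median 67.2) in control and 48.4 to 118 CPM (median 78.7) in E2 responsive cells, with a read in 44.3% to 48.6% of cells. Their E2 changes in responsive cells were −0.03 (95% interval −0.81 to 0.75, adjusted p = 0.992) and 0.22 (95% interval −0.28 to 0.71, adjusted p = 0.882). In cluster 1 they were 0.33 (SE 0.74) and −0.12 (SE 0.52), or 0.49 and −0.05 without the sum of replicate 15, neither called. These intervals are wide, and at these read numbers smaller changes were not detectable.

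**Figure D3:**
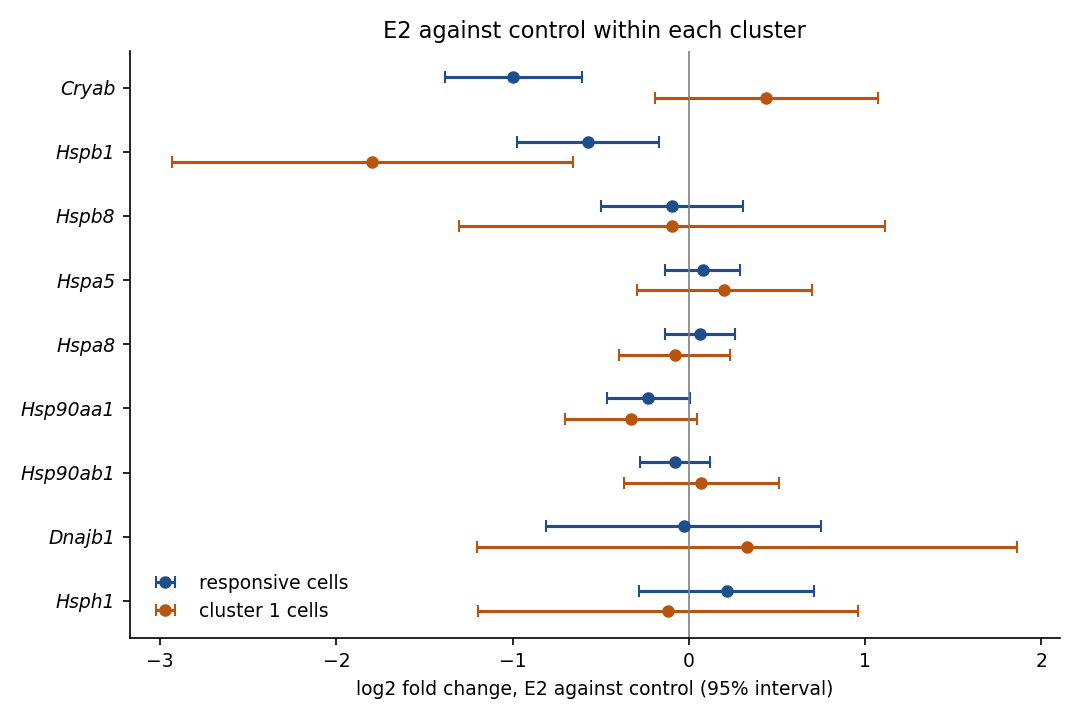
Log2 fold change of E2 against control (horizontal axis, points) with its 95% interval (bars) for the 9 chaperone genes in responsive (blue) and cluster 1 (orange) cells, from edgeR. Cryab in responsive cells (2.00-fold lower) is the one value called, and the cluster 1 intervals are wider throughout.

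In cluster 1, then, none of the 9 chaperones was called with E2 by edgeR. With all sums Hspb1 alone had an unadjusted p below 0.05 (0.00327), and without the sum of replicate 15 Hspb1 and Hsp90aa1 had (0.00296 and 0.00294). DESeq2 and limma-voom called none, and 0.0839% of the 8340 genes tested there were called. Over all cells of a library together, Cryab was again the 1 chaperone called, by −0.69 (SE 0.16, 95% interval −1.03 to −0.36, adjusted p = 0.0239), where 0.484% of 10945 genes were called lower. That call was lost without control replicate 9 (adjusted p = 0.0513) and without E2 replicate 14 (adjusted p = 0.0509). The all-cell value mixes both clusters, whose shares differ between the conditions.

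Hspa1b, the near-identical neighbour of Hspa1a and a stress-inducible HSP70 gene, was read mostly in cluster 1. It was singled out after its values were seen. Its reads were found in 2 of 421 responsive cells (0.475%, exact 95% interval 0.0576% to 1.71%) and in 20 of 168 cluster 1 cells (11.9%, exact 95% interval 7.43% to 17.8%). The 2 responsive cells had 1 read each, whereas the 20 cluster 1 cells had a median of 18.5 reads and up to 68, together 408 reads from 13 of 19 libraries. Within cluster 1 it was in 12 of 126 control and 8 of 42 E2 cells. Cells of cluster 1 with Hspa1b had a median of 106304 reads in all, against 103611 in the others, and Dnajb1 was found in 25% of the former and 29.1% of the latter, Hsph1 in 65.0% and 43.2%. The intervals cover counting error only, the clusters were drawn from the genes of these cells, and reads that fit both gene copies could have been divided between them.

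The abundant chaperones were found in almost all cells. Hspa8 and Hsp90ab1 were read in every cell, Hsp90aa1 and Hspa5 in nearly every one, in each of the 4 groups. After thinning, Hspb8 was read in 53.9% ± 19.6 of control and 59.2% ± 13 of E2 responsive cells, a difference smaller than the spread over libraries, and in 42.7% ± 18.9 and 36.3% ± 24.0 of cluster 1 cells.

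**Figure D4:**
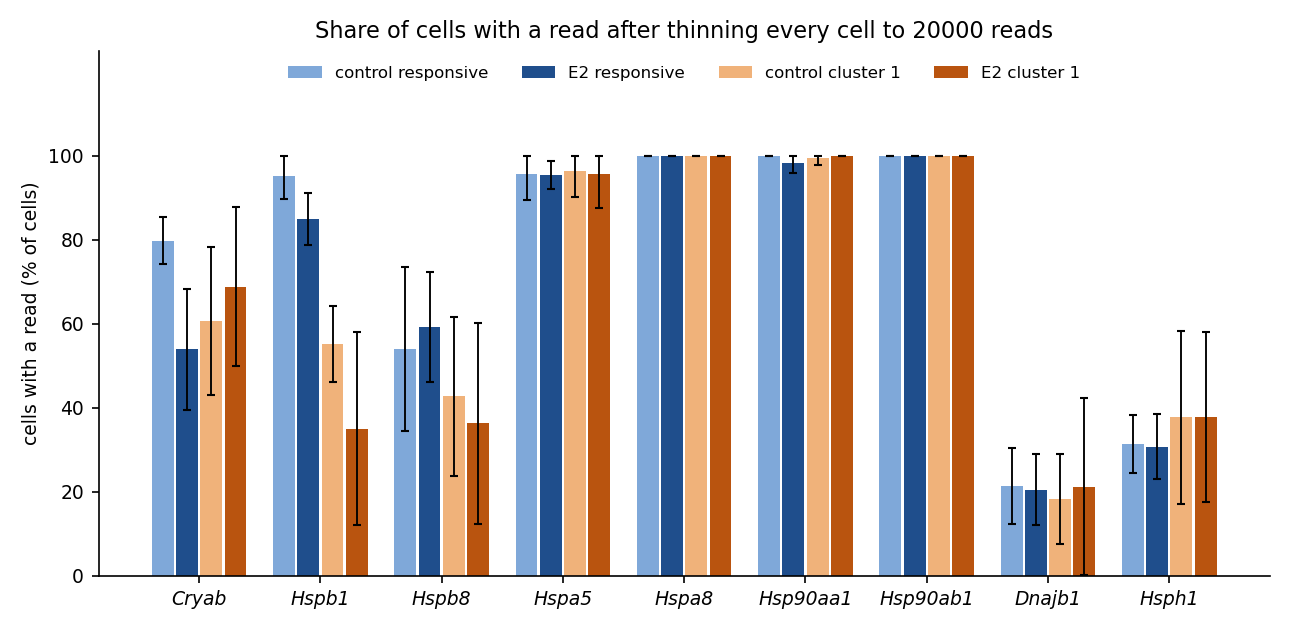
Share of cells with a read, in % of cells (vertical axis), of the 9 chaperone genes after thinning every cell to 20000 reads, in 4 groups. Bars are means over libraries (n = 10, 9, 10 and 7) and error bars ± 1 SD, cut at 0% and 100%; Cryab drops from 79.8% to 53.9% between control and E2 responsive cells, and Hspb1 from 95.2% in control responsive to 35.0% in E2 cluster 1 cells.

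Along the authors' pseudotime states (numbered groups of cells along a reconstructed path), Cryab was lower on average in the main E2 state than in the main control state. Its level without TMM scaling was 318 ± 74.6 CPM in state 2 of control cells (n = 10 libraries, 210 to 420 CPM) and 137 ± 57.5 CPM in state 5 of E2 cells (n = 9, 68.2 to 260 CPM), ranges that overlapped. In the 15 E2 cells of state 6 it was 254 ± 72.3 CPM (n = 5 libraries), and in state 1, which held cells of both conditions, 239 ± 84.1 CPM in control and 276 ± 106 CPM in E2 libraries. Hspb1 was at 691 ± 107 CPM in state 2 of control and 450 ± 187 CPM in state 5 of E2 cells, and at 229 ± 123 and 47.8 ± 32.6 CPM in state 1. The states were built from the same cells' genes, so these levels are given with no test.

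From cell to cell, the median Spearman correlation over the 36 pairs of chaperone genes was near 0 in all 4 groups. Among cells thinned to equal depth it was 0.0417 in 203 control responsive cells, with pairs from −0.0696 to 0.148, and 0.0176 in 218 E2 responsive cells, with pairs from −0.140 to 0.137. In cluster 1 the pairs spread wider, from −0.171 to 0.340 (median 0.0252) in 126 control cells and from −0.315 to 0.302 (median −0.0306) in 42 E2 cells. The value of 0.340, with 0.333 before thinning, belongs to Dnajb1 and Hsph1. The weak values in sparse counts are no finding. Over the 36 sums of a library and cluster, the gene whose level was most like that of Cryab among 11398 was C3, the central complement protein (Pearson r = 0.55), whose means of 2105, 1172, 1305 and 1584 CPM had the order of Cryab's groups. Lrrc49 and Col5a2, a fibrillar collagen chain, followed (r = 0.53 each). The genes most like Hspa5 were Smim14 (r = 0.68), Gm8520 (r = 0.65) and Lsm1 (r = 0.65). Without the sum of E2 replicate 15, an alternative added after seeing the data, these 6 values were 0.45 to 0.52. The sums share library and depth, and Lrrc49 was at 1526 CPM in that sum and at most 70.9 CPM elsewhere.

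Of 94 other genes in 8 lists (HSP70, HSP90, J-domain, small heat shock, exchange factor, chaperonin, ER and heat shock factor genes), none was called with E2 in either cluster by edgeR. In responsive cells 85 were tested, 6 had an unadjusted p below 0.05 (7.06%, against 9.89% of all genes), and DESeq2 called none. In cluster 1, 79 were tested and 7 had an unadjusted p below 0.05 (8.86%, against 7.46%), and DESeq2 called 1, the ER stress protein gene Manf (log2 fold change 1.58, SE 0.47, adjusted p = 0.312 by edgeR). Manf was at 860 CPM in the 3-cell sum of E2 replicate 15 and at most at 274 CPM in the other 6 E2 sums, and without that sum its edgeR value was 0.82 (SE 0.39, adjusted p = 0.855). Over all cells of a library together, edgeR called Manf higher by 0.64 (SE 0.15, adjusted p = 0.0274), where 1.13% of 10945 genes were called higher. That call was lost without control replicate 4, 7 or 8 (adjusted p = 0.0532, 0.0541 and 0.0507). The medians of the lists in responsive cells stayed near that of all genes, 0.02, at 0.04 for 6 HSP70 and HSP110 genes, −0.05 for 17 HSP90 genes and cochaperones, −0.01 for 19 J-domain genes, 0.03 for 11 chaperonins and 0.09 for 22 ER chaperones. Of the 10 exchange factors 9 had a negative value (median −0.23), where 4928 of 10265 genes did, and none was called. The 2 tested small heat shock genes (median −1.15) had wide errors, Hspb2 at −0.55 (SE 0.67) and Hspb7 at −1.75 (SE 0.81), and neither was called. The 3 heat shock factor genes had a median of 0.03.

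Between clusters, with no test, the median of each of the 8 lists was below 0, where all genes had a median of −0.06 and 6068 of 11398 were negative. The median of all genes depended on the setting, at 0.03 with RLE scaling and −0.30 with limma-voom. List medians near it are therefore not read as lower in cluster 1. The lists share genes, such as Hsp90b1 and Hyou1, and no small heat shock gene of the lists passed the filter within cluster 1. The fitted difference was negative for 5 of 7 HSP70 and HSP110 genes (median −0.62), 18 of 22 ER genes (median −0.35), 9 of 11 chaperonins (median −0.25) and 6 of 10 exchange factors (median −0.21). The 17 HSP90 genes and cochaperones had a median of −0.16, the 19 J-domain genes −0.15 and the 3 heat shock factor genes −0.09. Hspa5 itself stood at 0.10 (SE 0.13) and fell on either side of 0 over the settings (−0.02 to 0.24).

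Immediate early genes, which rise within minutes of handling as well as of growth signals, moved in part with the condition. Of 14, Fos and Fosb were called higher with E2 in responsive cells, by 0.69 (SE 0.15, adjusted p = 0.00870) and 1.09 (SE 0.21, adjusted p = 0.00373), where 0.848% of 10265 genes were called higher, and none was called lower, while 10 of the 14 had a negative value. Their summed level had medians of 3620 (2703 to 4697) and 3844 (3266 to 5731) CPM in control and E2 responsive cells, and of 2157 and 2586 CPM in cluster 1. Their part in the chaperone results was not tested.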

How the data were processed

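Estimated counts of reads per gene and cell had been made by the authors with kallisto 0.44.0 against GRCm38, imported to genes with tximport and filtered with scater (thresholds as in their methods, no molecular identifiers used here). Of the deposited values, 70.1% were 0 and 66.9% of the others were whole. Of the deposited cell metadata, the condition, SC3 cluster and state labels were used, with the detected-gene counts, the total-reads score, the mitochondrial percent and the size-factor ratio the authors had computed. Their imputed table was not used.

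Counts were summed per library (chip column) and cluster, rounded and tested with edgeR 4.0.16 (R 4.3.3; TMM, filterByExpr, quasi-likelihood test, sums of at least 3 cells, Benjamini-Hochberg over all genes); a gene was called when its adjusted p was under 0.05 and its log2 change larger than 0.5 in size. The interaction was fitted without a library block. Alternatives were DESeq2 1.42.0, limma-voom (limma 3.58.1), RLE scaling, sums of at least 5 cells, no filter, thinning of each cell to 20000 reads, k-means labels from counts without imputation (583 of 589 cells labelled alike), library as a block, and each library left out. The edgeR fits of E2 against control within responsive cells and within cluster 1 were tested on simulated data. The other fits and tools were not. Libraries had 2693258 to 5078340 reads. Libraries of a condition are taken to share 1 suspension, so p-values measure the spread between chip columns, which may be technical. The chaperones and lists were chosen with earlier results of these data known. Named genes were the 9 chaperones, up to 5 called genes a direction of each wider list within a cluster (there were none), and the 3 genes most like Cryab and Hspa5, by Pearson r of log2(CPM + 1). Positions are from GENCODE M21. Hspa8, Hsp90aa1, Hsp90ab1 and Hspa1b have near-identical copies or pseudogenes among which kallisto can divide reads, so their levels are uncertain to that extent.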

Additional observations from a re-analysis of the deposited data

Results flagged for a closer look

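Of 36 groups of libraries (9 genes in 4 groups), 2 held a library whose gap to the next, as a share of the group's range, passed Dixon's 95% value, where chance flags about 1 in 20 groups. Hspb1 was at 1034 CPM in control replicate 5 of the responsive cells (15 cells), with the next library at 759 CPM (gap 0.582 of the range, n = 10). Hspa8 was at 1431 CPM in E2 replicate 15 of the responsive cells (24 cells), with the next library at 1126 CPM (gap 0.591 of the range, n = 9). Without these libraries neither gene was called in responsive cells.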

How the results depend on the processing

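Libraries of a condition are taken to share 1 suspension and the cluster 1 sums hold few cells, so depth limits every cluster 1 value. The numbers of genes called moved most. DESeq2 called 236 genes in responsive cells, 52 in cluster 1, 109 in the interaction and 324 over all cells, against 141, 7, 21 and 177 by edgeR. In cluster 1 the count was 1 without the filter on low counts. In the interaction it was 13 with limma-voom, 5 with thinned cells and 0 with library as a replicate block (892 genes at an unadjusted p below 0.05), and the split of calls into higher and lower was 2 and 19 by edgeR, 7 and 15 with RLE scaling. The cause was not tested. Leaving out 1 library gave 107 to 141 calls in responsive cells, 1 to 9 in cluster 1, 15 to 44 in the interaction and 133 to 209 over all cells.

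Among the chaperones, 1 was called in the interaction with DESeq2 and with RLE scaling (Cryab, 1.61 and 1.62) and 0 to 1 on leaving out 1 library, as over all cells (0 to 1). Responsive Cryab was called in each setting. In the description of the clusters, 5 of 9 genes were lower in cluster 1, 8 with limma-voom and 4 to 6 on leaving out 1 library.

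Signs turned for values that no setting called. In responsive cells Dnajb1 was 0.095 with limma-voom and 0.025 with thinned cells (leaving out 1 library −0.15 to 0.12), and Hspb8 ran from −0.18 to 0.033. In cluster 1, Hspa8 was 0.053 with DESeq2, 0.060 with RLE scaling and 0.0034 with k-means labels. Hsp90ab1 there was −0.12 with limma-voom, −0.028 without the filter and −0.21 with at least 5 cells per sum (leaving out 1 library −0.21 to 0.20), and Hspa5 was −0.040 with at least 5 cells (−0.040 to 0.30). Hspb8 there was 0.068 with DESeq2, 0.065 with RLE scaling, 0.41 with thinned cells and 0.030 with k-means labels (−0.42 to 0.15). Leaving out 1 library gave −0.019 to 0.53 for Dnajb1 and −0.37 to 0.11 for Hsph1 in cluster 1.

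With the library as a replicate block, possible only for the interaction and the cluster description, the Cryab interaction was 1.35 (adjusted p = 0.431 by edgeR) and that of Hspb1 −1.10 (adjusted p = 0.666). Control and E2 share no replicate number, so no block applies to their comparison. Thinning to 20000 reads lowered the responsive shares of Dnajb1 to 21.3% and 20.5%, and of Hsph1 to 31.3% and 30.8% (control, E2). The planned sum of Hspa1a with Hspa1b and the genes most like Hspa1a were not run, since Hspa1a is not analysed here.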
